A study of Mus musculus with 2 samples.

Results

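The expression of 10 genes of blood vessel growth was followed across the lung cells of tumor-bearing mice. They were the ligand genes Vegfa, Angpt1, Angpt2, Apln and Prok2 and the receptor genes Kdr, Flt1, Nrp1, Tek and Aplnr. They were taken from the deposited matrices by gene symbol, and all 10 were found among 32285 genes. The female BALB/cJ mice were 12 weeks old. They had received 100000 4T1 cells in a mammary fat pad 14 days before their lungs were taken. The 4T1 line is a mouse mammary carcinoma line that spreads to the lung. One group received intravenous PLG nanoparticles (NPs), polymer particles without a drug cargo, and the other received intravenous saline at 3-day intervals from day 1 after inoculation. Each group was 1 library from pooled lungs, of 4 mice by the labels (the study's methods give another number), so no comparison below has a replicate check. Intervals are 95% intervals that cover counting error only.

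VEGF-A acts on endothelial cells through the receptor VEGFR2, which Kdr encodes, while VEGFR1, from Flt1, binds the ligand tightly and limits it, and neuropilin-1, from Nrp1, is a co-receptor. Angiopoietin-1 activates the receptor Tie2, from Tek, and so steadies vessels, and angiopoietin-2 can oppose it. Apelin acts through the receptor that Aplnr encodes. Prokineticin 2, from Prok2, is a secreted protein of neutrophils and other myeloid cells that can stimulate endothelial growth in tumors. Lung capillaries hold general capillary cells and aerocytes, which are thin cells that face the air space.

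On GRCm38, Kdr lies at chr5:75932827-75978458, Flt1 at chr5:147561604-147726011, Nrp1 at chr8:128358604-128503363, Tek at chr4:94739289-94874976 and Aplnr at chr2:85136225-85139923. The ligand genes lie at chr17:46016993-46032369 (Vegfa), chr15:42424723-42676977 (Angpt1), chr8:18690263-18741562 (Angpt2), chrX:48025146-48034853 (Apln) and chr6:99711299-99726392 (Prok2).

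The matrices held 91168129 saline and 90081747 NP unique molecular identifiers (UMIs, which count captured transcripts once). Only barcodes with between 500 and 5000 genes, and with mitochondrial genes below 7.5% of UMIs, entered, which left 8662 saline and 8333 NP cells with median depths of 6474.5 and 6008 UMIs. The 2 libraries shared 21 of these barcodes. Cells were clustered without the 10 genes, and 14 cell classes were named from marker genes, each written here with "-like". In endothelial-like cells all 11 endothelial markers were found in at least 31.4% of saline and 31.6% of NP cells. Of the 31 clusters, 5 stayed unnamed, 3 of them because neutrophil or endothelial markers stood beside those of another class. Levels are given as CPM, the UMIs of a gene for each 1000000 UMIs of the class.

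The 4 stretches of DNA upstream of these genes are printed because they belong to 3 receptor genes counted mainly in endothelial-like cells and to the ligand gene counted mainly in neutrophil-like cells. Each is the 150 bases before the gene's start on GRCm38.p6 in RefSeq's promoter table, 5′ to 3′ on the strand of the gene. Of the 10 genes, 7 had an entry there. In the first 3, capitals mark GGAA, the core that ETS factors of endothelial cells bind, on either strand (TTCC on the printed strand).
Kdr, chr5:75978456-75978605, minus strand: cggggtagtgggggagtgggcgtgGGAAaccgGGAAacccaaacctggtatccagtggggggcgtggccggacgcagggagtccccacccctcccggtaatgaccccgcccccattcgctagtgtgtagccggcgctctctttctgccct
Flt1, chr5:147726012-147726161, minus strand: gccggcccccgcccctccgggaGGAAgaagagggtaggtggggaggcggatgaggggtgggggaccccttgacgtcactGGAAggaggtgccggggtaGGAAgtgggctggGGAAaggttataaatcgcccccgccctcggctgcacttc
Tek, chr4:94739139-94739288, plus strand: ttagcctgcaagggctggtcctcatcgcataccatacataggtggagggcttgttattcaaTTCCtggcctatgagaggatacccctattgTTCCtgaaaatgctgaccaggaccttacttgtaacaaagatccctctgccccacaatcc
Prok2, chr6:99726393-99726542, minus strand: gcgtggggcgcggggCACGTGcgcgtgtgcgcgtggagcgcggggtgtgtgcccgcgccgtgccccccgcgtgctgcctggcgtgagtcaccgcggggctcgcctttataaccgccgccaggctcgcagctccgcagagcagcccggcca
The core stood 2 times before Kdr, 4 times before Flt1 and 2 times before Tek, and 0 times before Prok2. Among all 32851 windows of this length, 80.8% held it at least once, with a median of 2 matches. In the Prok2 stretch the capitals mark instead ACGTG, the form of the hypoxia response element core that begins with A. It matched 2 times, once on each strand and overlapping, and was present in 11.2% of all windows. Both matches lie in CACGTG, which reads the same on either strand. The form that begins with G was not searched, and GCGTG can be read in the printed Kdr and Prok2 stretches. A lack of ACGTG is therefore not a lack of the core. ACGTG was not found before Kdr, Flt1 or Tek. It was also absent from the Vegfa windows, which are not printed. A motif of C/EBP factors, TTNNGCAA, was searched too and matched 0 times in the 4 stretches, where 5.46% of all windows held it. These are matches of letters, not binding sites.

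The 5 receptor genes had their highest levels in endothelial-like cells in both libraries. Kdr was at 723 CPM (679 to 769) in saline and 726 (704 to 750) in NP endothelial-like cells, from 1009 and 3914 UMIs. Those cells held 71.7% of all saline and 82.6% of all NP Kdr UMIs. The shares were 61.0% and 70.1% for Flt1, 78.2% and 82.3% for Tek and 79.4% and 83.2% for Aplnr, but 44.2% and 57.6% for Nrp1, of which monocyte-like cells held 21.3% and 17.3%. Flt1 was at 834 (787 to 884) and 852 (828 to 877), Nrp1 at 545 (507 to 585) and 532 (513 to 552), and Tek at 538 (500 to 578) and 566 (546 to 586). Aplnr was at 226 (202 to 253) in saline and 207 (195 to 219) in NP. None of these pairs of intervals is separate.

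**Figure D1:**
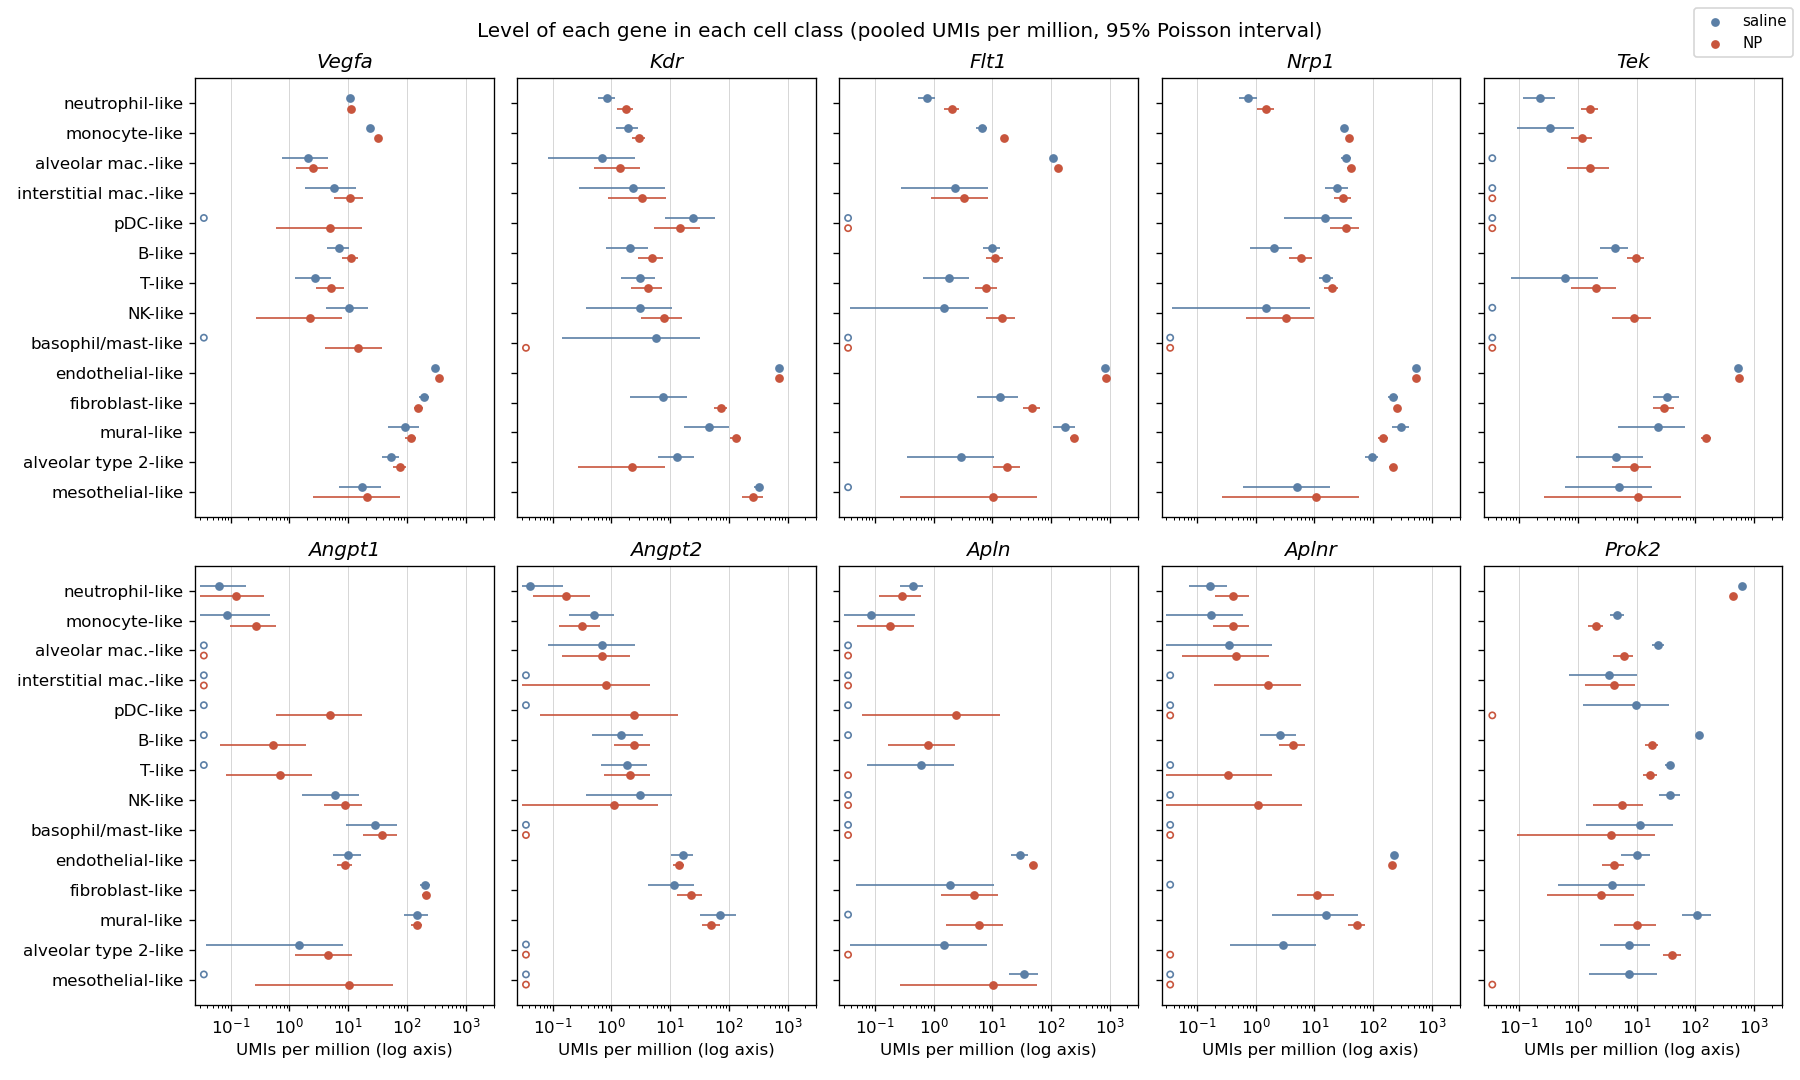
Each panel plots 1 gene, with its CPM in the class on a log axis and the 14 cell classes on the vertical axis, for saline (blue) and NP (red). Lines are 95% Poisson intervals, and open circles at the left edge mark classes with no UMI of the gene. Kdr, Flt1, Nrp1, Tek and Aplnr are highest in endothelial-like cells, at 207 to 852 CPM, and Prok2 in neutrophil-like cells, at 625 and 445.

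Between the libraries the receptor levels within endothelial-like cells were close. The log2 ratio of NP over saline was 0.01 (-0.09 to 0.11) for Kdr, 0.03 (-0.06 to 0.12) for Flt1, -0.04 (-0.15 to 0.08) for Nrp1, 0.07 (-0.04 to 0.19) for Tek and -0.13 (-0.31 to 0.05) for Aplnr. A change of 1.5-fold, 0.58 on the log2 scale, lies outside each of these intervals. Of the 10 genes, 9 had at least 50 UMIs in this class over both libraries, and only Prok2 did not. Past 1.5-fold, 1 of the 9 was higher with NP (Apln) and 0 were lower, where 4.78% of the 9255 genes of the class with at least 50 UMIs were higher and 4.64% were lower. The median of the 9 was 0.01 and that of all 9255 genes was -0.06.

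Over the whole libraries, which held different numbers of each cell class, the ratios were larger. Endothelial-like cells were 3.45% (3.08% to 3.86%) of saline cells and 13.4% (12.7% to 14.2%) of NP cells. These shares leave out the unnamed cluster with endothelial and alveolar type 1 markers, 1.56% of saline and 5.15% of NP cells. They also differ from the study, whose own clusters gave endothelial cells close shares in the 2 groups. Kdr UMIs over all kept cells were at 18.1 CPM in saline and 65.5 in NP, a log2 ratio of 1.86. The ratio was 1.88 for Flt1, 1.64 for Nrp1, 2.05 for Tek and 1.85 for Aplnr. Counted per cell, the Kdr ratio was 1.81, and giving the saline cells of each class the cell numbers of the NP library yielded 1.68 of it. For Aplnr the same step gave 1.79 of 1.81. How many cells of a class a suspension holds depends on the tissue and on how it was dissociated, and with 1 pool a group these cannot be told apart.

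**Figure D2:**
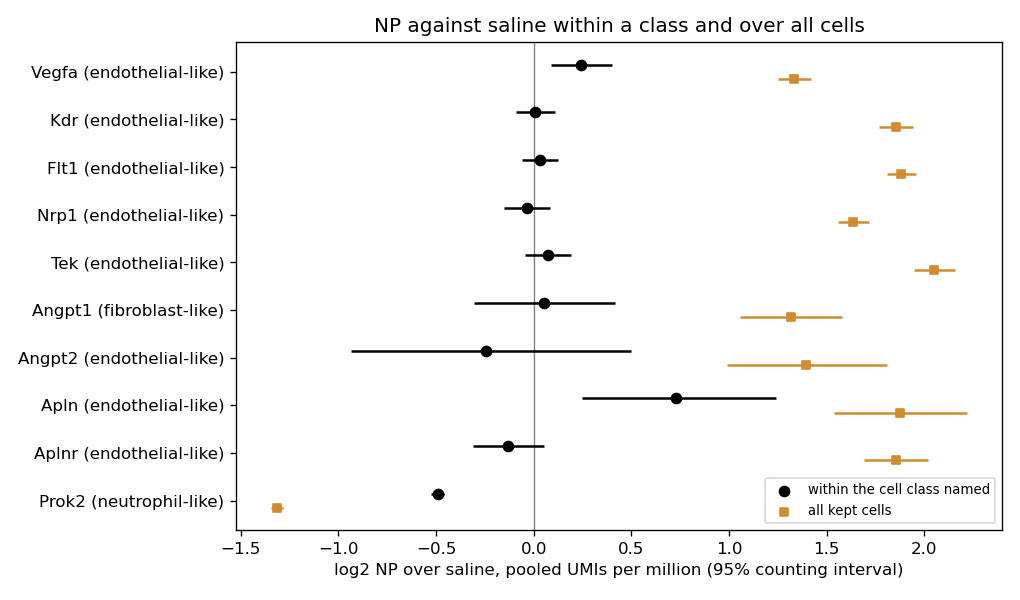
The horizontal axis is the log2 ratio of NP over saline in CPM, with 95% counting intervals. Black circles are ratios within the class named beside each gene, and orange squares are ratios over all kept cells. Receptor genes lie near 0 within endothelial-like cells and between 1.64 and 2.05 over all cells, and Prok2 lies below 0 in both, at -0.49 and -1.31.

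Endothelial-like cells were divided again into 8 sub-clusters, which the 10 genes did not shape, and the values between them are a description. General capillary-like cells were 222 saline and 822 NP cells, aerocyte-like cells 31 and 144, and large vessel-like cells 19 and 67. Lymphatic-like cells were only 3 and 14, and 24 and 73 cells in sub-clusters led by fibroblast or neutrophil genes stayed unnamed. Kdr was at 476 CPM in general capillary-like and 2293 in aerocyte-like saline cells, a log2 difference of 2.27 (2.07 to 2.47). In the NP library it was 412 and 2103, a difference of 2.35 (2.25 to 2.45). Nrp1 was also higher in aerocyte-like cells, by 1.66 and 1.54 on the log2 scale.

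Tek, Aplnr and, less so, Flt1 were higher in general capillary-like cells. Tek was at 666 CPM there and 37.9 in aerocyte-like cells of the saline library, and at 740 and 79.6 in the NP library. Aplnr was at 325 against 5.41 in saline, where aerocyte-like cells held 1 UMI, and at 319 against 13.3 in NP. Flt1 differed by -0.80 and -0.79, with 953 and 988 CPM in general capillary-like cells. Apln was at 6.93 and 6.07 CPM in general capillary-like cells and at 157 and 216 in aerocyte-like cells, which held 70.7% and 80.9% of the endothelial-like Apln UMIs.

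**Figure D3:**
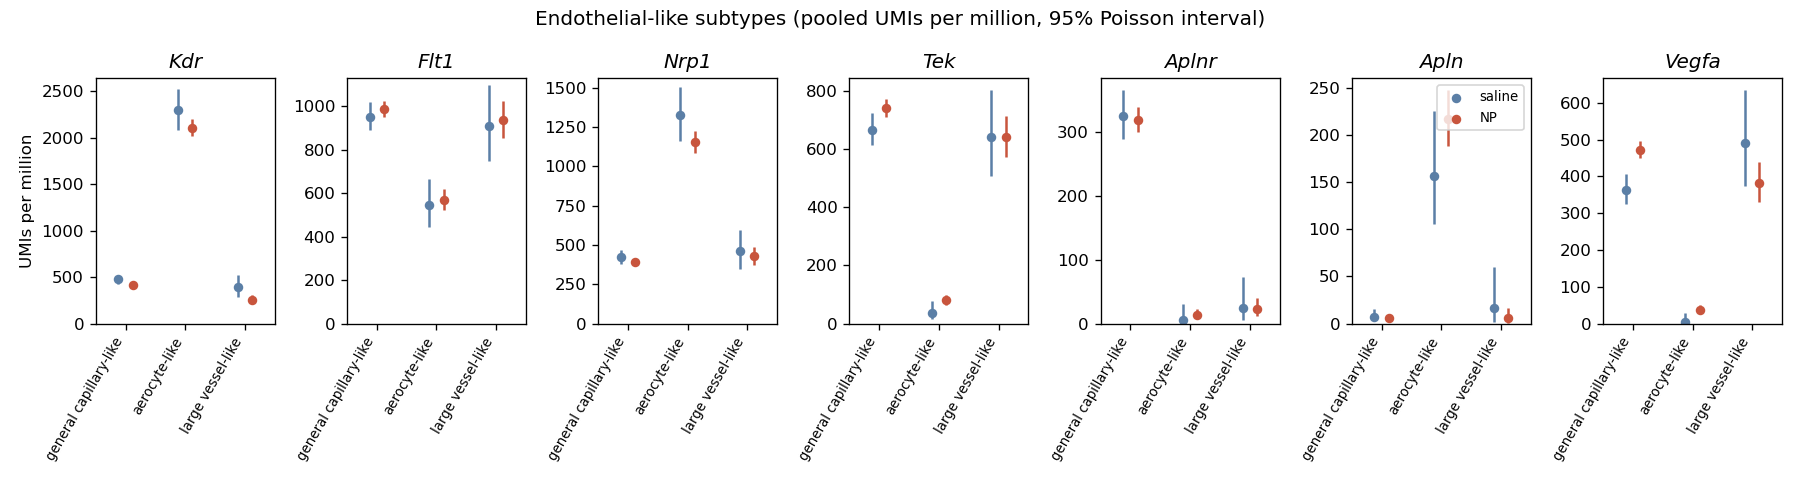
Points are CPM in the subtype (vertical axis, from 0, each panel with its own scale) in general capillary-like, aerocyte-like and large vessel-like cells, for saline (blue) and NP (red), with 95% Poisson intervals. Kdr, Nrp1 and Apln are highest in aerocyte-like cells, while Tek, Aplnr and Vegfa are low there.

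Within the subtypes the Kdr ratios differed in size, but their intervals overlapped. The log2 ratio was -0.21 (-0.37 to -0.05) in general capillary-like, -0.12 (-0.28 to 0.03) in aerocyte-like and -0.61 (-1.10 to -0.09) in large vessel-like cells, and 0.69 (-0.62 to 2.36) in lymphatic-like cells, from 5 and 55 UMIs. General capillary-like cells were 2 sub-clusters. In the larger, of 140 saline and 619 NP cells, Kdr was at 0.02 (-0.23 to 0.28), and in the other, of 82 and 203 cells, at -0.31 (-0.53 to -0.09). Aerocyte-like cells, where Kdr was highest, were 10.4% (7.15% to 14.4%) of saline and 12.9% (10.9% to 14.96%) of NP endothelial-like cells, and gave 13.2% and 18.2% of their UMIs. With sub-clusters weighted alike in both libraries, the ratio for Kdr was -0.13. Tek was at 0.15 (0.02 to 0.29) in general capillary-like cells, but at 0.02 (-0.15 to 0.19) and 0.17 (-0.05 to 0.39) in those 2 sub-clusters. Flt1 and Nrp1 had intervals that included 0 in general capillary-like, aerocyte-like and large vessel-like cells. In the larger general capillary-like sub-cluster Nrp1 was at -0.05 (-0.28 to 0.18), but in the other it was at -0.29 (-0.55 to -0.02).

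Vegfa came from many cells, and its main source differed between the libraries. In the saline library 32.9% of its 1594 UMIs were in neutrophil-like cells, 26.1% in endothelial-like and 17.4% in monocyte-like cells. In the NP library 50.9% of its 3739 UMIs were in endothelial-like cells, 19.0% in monocyte-like and 7.22% in neutrophil-like cells. Endothelial-like cells were 3.45% of saline and 13.4% of NP cells, and neutrophil-like cells were 64.5% and 37.0%. Counted per cell over all kept cells, the Vegfa log2 ratio was 1.29, and the NP cell numbers alone gave 0.98 of it. The Vegfa level was highest in endothelial-like cells, 298 CPM (270 to 328) in saline and 353 (337 to 369) in NP, with a log2 ratio of 0.24 (0.09 to 0.40). It was at 196 and 157 in fibroblast-like cells and at 53.2 and 75.5 in alveolar type 2-like cells. In neutrophil-like cells, the largest class, it was at 10.9 (10.0 to 11.9) and 11.2 (9.92 to 12.6), a ratio of 0.04 (-0.18 to 0.25).

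Over all monocyte-like cells Vegfa was at 23.7 (21.0 to 26.7) CPM in saline and 32.0 (29.7 to 34.4) in NP, a log2 ratio of 0.43 (0.23 to 0.64). The class joined 3 clusters whose shares differed between the libraries: one led by Ccr2 and Ly6c2 of 562 saline and 733 NP cells, one led by Aif1 and MHC class II genes of 123 and 401, and one led by Treml4 and Adgre4 of 98 and 379. Vegfa was higher in NP in the first, at 0.79 (0.55 to 1.03), and was at -0.21 (-0.60 to 0.19) in the second and 0.14 (-1.42 to 2.14) in the third. Among endothelial-like subtypes it was higher in general capillary-like NP cells, at 364 and 473 and a ratio of 0.38 (0.20 to 0.56). In the larger of their 2 sub-clusters Vegfa was at 0.32 (0.10 to 0.55), and in the other at 0.17 (-0.12 to 0.48). Both are below the joint ratio, and the part of the mix of these sub-clusters was not tested. It was lower in the sub-cluster of 8 saline and 34 NP large vessel-like cells led by Esm1, Vwf and Gja5, the last an arterial gap junction gene. There the levels were 1276 and 872 and the ratio was -0.55 (-1.04 to -0.03). In the other large vessel-like sub-cluster, of 11 saline and 33 NP cells led by Slc6a2, it was -1.09 (-2.03 to -0.11), from 16 and 28 UMIs. Over all large vessel-like cells the ratio was -0.36 (-0.79 to 0.08). In aerocyte-like cells Vegfa had 1 saline UMI and 36 NP UMIs.

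The angiopoietins came from stromal cells and vessels. Fibroblast-like cells held 59.7% of 176 saline and 41.4% of 408 NP Angpt1 UMIs, at 202 (165 to 244) and 209 (179 to 243) CPM, a log2 ratio of 0.05 (-0.31 to 0.42). Mural-like cells were at 148 (89.0 to 231) and 147 (119 to 178). Of these, 20 of the 29 saline and 60 of the 113 NP cells formed a cluster with the fibroblast genes Dcn, Lum and Aspn among its leading genes. Angpt2 had 72 saline and 176 NP UMIs in all, of which endothelial-like cells held 31.9% and 42.6%. It was at 70.0 (32.0 to 133) and 49.9 (34.5 to 69.7) CPM in mural-like and at 16.5 (10.4 to 24.7) and 13.9 (10.9 to 17.5) in endothelial-like cells, where the ratio was -0.24 (-0.93 to 0.50). A level lower by 1.5-fold lies inside that interval, so at these counts such a difference was not detectable.

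Apln was at 29.4 (21.1 to 39.8) CPM in saline and 48.6 (42.9 to 54.9) in NP endothelial-like cells, from 41 and 262 UMIs. Its log2 ratio was 0.73 (0.25 to 1.24). Within aerocyte-like cells the ratio was 0.46 (-0.10 to 1.08), and in the endothelial-like cells without them it was 0.20 (-0.73 to 1.24), from 12 and 50 UMIs. Both intervals include 0. The ratio was -0.48 with at least 800 detected genes a cell and -0.32 at clustering resolution 0.5. In both of these settings 1 of the 175 aerocyte-like cells remained in the endothelial class, other cells of the class changed too, and the cause of the turn was not tested. Outside that class, 14 of the 95 saline Apln UMIs came from 1 of the 36 mesothelial-like cells.

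**Figure D4:**
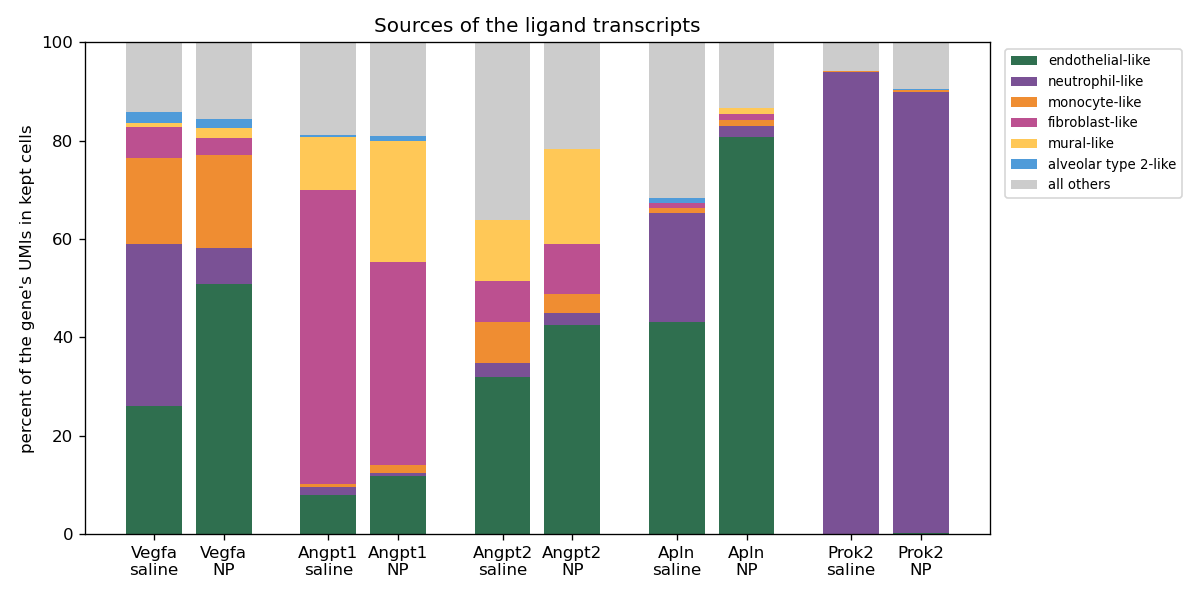
Each bar divides all UMIs of 1 ligand gene in the kept cells of 1 library by cell class, as percent on the vertical axis. The endothelial-like share of Vegfa is 26.1% in saline and 50.9% in NP, and neutrophil-like cells hold 94.0% and 89.7% of Prok2. The cell classes also differ between the libraries in their share of cells.

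Prok2 was a transcript of neutrophil-like cells. They held 29997 of 31922 saline UMIs (94.0%) and 10700 of 11932 NP UMIs (89.7%). Over all kept cells its level was 410 CPM in saline and 165 in NP, a log2 ratio of -1.31 (-1.35 to -1.28). Neutrophil-like cells were 64.5% (63.5% to 65.6%) of saline and 37.0% (36.0% to 38.1%) of NP cells. Counted per cell the ratio was -1.36, and the NP cell numbers alone gave -0.68 of it.

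Within neutrophil-like cells Prok2 was at 625 (618 to 632) CPM in saline and 445 (436 to 453) in NP. The log2 ratio was -0.49 (-0.52 to -0.46), or -0.36 relative to the median gene of the class, which was itself at -0.13. That ratio did not reach 1.5-fold, which 7.86% of the 9539 genes of the class did downward. A Prok2 UMI was found in 53.5% of saline and 41.6% of NP neutrophil-like cells at median depths of 6043 and 5224 UMIs. After each cell was thinned to 1000 UMIs, which left out 8 saline and 1 NP cells, the shares were 26.8% (25.6% to 28.0%) and 19.5% (18.1% to 20.9%). In endothelial-like cells, which should lack it, the thinned shares were 0.338% and 0.

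The gene was unevenly spread over neutrophil-like sub-clusters. It was highest, at 1217 (1198 to 1236) CPM in saline and 1129 (1099 to 1161) in NP, in the sub-cluster led by Ifitm6, Ggt1, Retnlg, Mmp8 and Ly6g. The sub-cluster led by Ccl6, Saa3 and Wfdc17 was at 745 (728 to 761) and 684 (659 to 711). A small one of 29 saline and 31 NP cells led by the endothelial genes Epas1 and Cldn5 was at 803 (700 to 917) and 357 (277 to 452). Of the 7 sub-clusters, the first pair named had the highest levels of Retnlg, at 20010 and 22260 in the first and 16240 and 14320 in the second. Prok2 was at 373 and 202 in the sub-cluster led by Camp, Ltf and Ngp, granule genes of immature neutrophils, and at 153 and 116 in that led by Saa3, Atf3 and Il1b, which was 50.8% of saline neutrophil-like cells.

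Prok2 was lower in NP in all 7 sub-clusters, by unequal amounts. The log2 ratio was -0.11 (-0.15 to -0.06) and -0.12 (-0.19 to -0.06) in the pair led by Ifitm6 and by Ccl6, no further from 0 than their median genes at -0.11 and -0.16. It was -0.40 (-0.56 to -0.25) in the sub-cluster led by Saa3 and Atf3 and -0.89 (-0.98 to -0.79) in the sub-cluster led by Camp and Ltf. A sub-cluster led by interferon-induced genes (Gbp2b, Rsad2, Isg15) was 2.32% of saline and 33.4% of NP neutrophil-like cells, and Prok2 was at 362 (321 to 408) and 224 (212 to 237) there. The 17 dividing cells of each library, led by Camp, Ube2c and Top2a, had 176 and 22.7. Saline levels in the NP mix of sub-clusters gave a log2 ratio of -0.17, and NP levels in the saline mix gave -0.22.

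**Figure D5:**
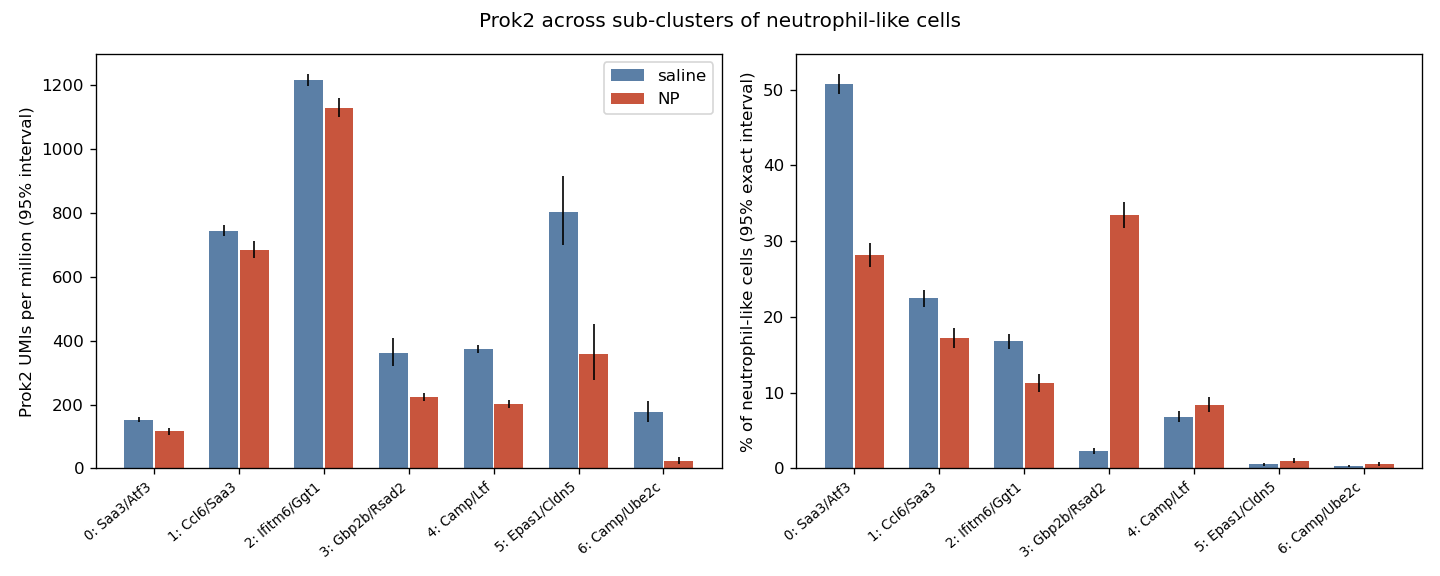
The left panel shows Prok2 CPM in 7 sub-clusters of neutrophil-like cells, named by number and 2 leading genes, and the right panel each sub-cluster's percent of the neutrophil-like cells, for saline (blue) and NP (red) with 95% intervals. Prok2 is highest in sub-cluster 2, and sub-cluster 3, led by Gbp2b and Rsad2, is 2.32% of saline and 33.4% of NP neutrophil-like cells.

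Prok2 was also counted at low levels in other classes, read here beside S100a8, an abundant neutrophil transcript. B-like cells had Prok2 at 118 CPM in saline and 17.99 in NP, with 6.10% and 2.48% of cells holding a UMI. Most of it was in 1 of the 2 B-like clusters, of 53 saline and 48 NP cells, which also had Ngp, a neutrophil granule gene, among its leading genes. That cluster held Prok2 at 599 and 116 CPM, and the other, of 472 and 596 cells, at 3.23 and 1.88. Neutrophil-like cells had 4.70 and 3.08 Prok2 UMIs for each 1000 S100a8 UMIs, and B-like cells had 7.23 and 2.01. Free RNA, read from barcodes with under 50 UMIs, held Prok2 at 270.5 and 113 CPM, which by the largest share that class markers allowed gave B-like cells at most 4.26 and 1.82 CPM. In alveolar type 2-like cells Prok2 was at 7.40 (2.40 to 17.3) and 40.6 (28.4 to 56.2), and 6.12% of the 49 NP cells held it. These levels rest on 5 UMIs in 2 saline cells and 36 UMIs in 3 NP cells, with 21 of the 36 in 1 cell. For each 1000 S100a8 UMIs there were 2.08 and 12.4 Prok2 UMIs in this class. Cell doublets were kept, and their part in these values was not tested. Of its receptor genes, Prokr1 had 7 saline and 9 NP UMIs over all kept cells, and Prokr2 had 2 and 0, where 0 of 8333 cells allows a share of cells with a UMI of up to 0.036% and sets no limit on cells that express the gene.

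Some receptors were also counted outside endothelium. Flt1 in alveolar macrophage-like cells was at 108 (96.7 to 121) and 129 (118 to 140) CPM, a log2 ratio of 0.25 (0.05 to 0.46), while Kdr there was at 0.69 and 1.40. It was found in 75.9% and 77.2% of these cells at median depths of 17268 and 19568 UMIs, and after thinning in 9.15% and 14.0%, against 0.0717% and 0.195% of neutrophil-like cells. Nrp1 was spread most widely, at 217 and 258 in fibroblast-like, 31.4 and 38.7 in monocyte-like, 34.8 and 42.4 in alveolar macrophage-like and 15.7 and 19.6 in T-like cells. Kdr in mesothelial-like cells, which line the lung surface, was at 326 (272 to 387) and 261 (169 to 386).

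Nrp1 in alveolar type 2-like cells was at 94.7 (72.9 to 121) in saline and 218 (188 to 251) in NP, a log2 ratio of 1.20 (0.79 to 1.63). The median gene of that class stood at 0.38, and the ratio relative to it was 0.82. The 52 saline and 49 NP cells had median depths of 13061 and 18886 UMIs and also carried airway genes such as Scgb1a1, whose part was not tested. In mural-like cells Nrp1 was lower in NP, at 296 (209 to 406) and 148 (121 to 180), from 29 and 113 cells. The class joined the cluster with fibroblast genes, of 20 saline and 60 NP cells, and another of 9 and 53. Nrp1 was not read in each, so the part of this mix was not tested.

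In neutrophil-like cells the receptor levels were low, and they were higher in NP together with endothelial markers. Of the 6 genes with at least 50 UMIs in neutrophil-like cells, 4 were past 1.5-fold upward (Kdr, Flt1, Nrp1 and Tek), against 6.05% of all genes there. Their levels were 0.229 to 0.834 CPM in saline and at most 2.04 in NP. Tek had 11 saline and 39 NP UMIs, which only just reached the minimum of 50. At its saline level in both libraries Tek would not have been counted, so its place among the 4 is not separate support. The 11 endothelial markers, none at 0, summed to 17.3 CPM in saline and 37.0 in NP. All 7 measured genes of an endothelial identity list (Pecam1, Cdh5, Cldn5 and others) were past 1.5-fold, with a median of 1.02. The marker and identity lists share genes, among them Pecam1, Cdh5 and Cldn5, and are not separate readings. An endothelial marker was found in 34.5% (25.7% to 44.2%) of saline neutrophil-like cells with a receptor UMI and in 10.6% (9.80% to 11.5%) of those without, and in NP these shares were 39.9% and 18.2%. Cells with a receptor UMI were also deeper, with medians of 6550 UMIs in saline and 7643 in NP, against 6032 and 5170 in those without. The log2 ratios of Kdr, Flt1, Nrp1 and Tek were 1.07, 1.40, 0.996 and 2.82. Without the neutrophil-like sub-cluster led by endothelial genes they were 1.04, 1.46, 1.17 and 2.87. Free RNA, read as for Prok2 above, gave these genes at most 0.154 CPM in saline and 0.654 in NP, both for Flt1. The part of endothelial RNA in these receptor values was not tested further.

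Flt1 in monocyte-like cells was at 6.59 (5.20 to 8.24) and 15.9 (14.2 to 17.6), a log2 ratio of 1.27 (0.91 to 1.64). In the 3 clusters of the class it was 0.85 (0.32 to 1.40), 1.06 (0.40 to 1.79) and 0.47 (-0.34 to 1.40), in the order given above, and the saline levels there were 4.57, 11.6 and 20.5 CPM. Of the 5 genes with at least 50 UMIs there, 2 were past 1.5-fold upward (Kdr and Flt1), where 5.92% of 10258 genes were, and 1 was past it downward (Prok2), where 3.66% were. Prok2 was at only 4.62 and 2.02 CPM, of which free RNA could give at most 1.26 and 1.77. For each 1000 S100a8 UMIs there were 1.71 and 1.44 Prok2 UMIs, and the part of neutrophil RNA was not tested. Like Kdr and Flt1, the 4 measured genes of the endothelial identity list were higher, with a median log2 ratio of 1.26. Among these cells those with a receptor UMI held an endothelial marker in 25.2% (saline) and 47.3% (NP), and those without in 25.3% and 44.3%. Cells with a receptor UMI numbered 301 and 719, and most held Nrp1, which was found in 248 and 554 cells, against 61 and 209 for Flt1. The shares were not split by receptor, so they do not describe Flt1 or Kdr alone. In mural-like cells Tek had 3 saline and 104 NP UMIs and the endothelial markers summed to 2482 and 4445 CPM. In fibroblast-like cells Kdr was at 7.69 and 73.1 and these markers at 394 and 1278. Their part was not tested.

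Other genes of the same pathways were mostly close between the libraries within endothelial-like cells. Of 15 tip cell and Notch genes, 14 had at least 50 UMIs and 0 were past 1.5-fold, with a median log2 ratio of 0.01. The 10 growth and barrier receptors (Eng, Acvrl1, S1pr1 and others) and the 10 endothelial identity genes were all measured and 0 of either list were past it, with medians of 0.03 and -0.11. Pecam1, Cdh5, Cldn5, Erg, Egfl7, Esam and Emcn of the identity list were also markers that named this class. So were Calcrl and Ramp2 of the receptor list, and Tie1 and Ptprb of the angiopoietin and Tie list given below. Their values are therefore not independent of the naming. Of 5 measured VEGF family genes 1 was higher, Vegfb, at 0.74 (0.09 to 1.46), and of 2 angiopoietin and Tie genes 0 were. Of 10 measured hypoxia and other regulators 2 were higher and 2 lower, where 4.78% of all genes of the class were higher and 4.64% lower.

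Cxcl12, a chemokine of vessels that retains CXCR4-bearing cells, was at a log2 ratio of 0.86 (0.70 to 1.02), from 383 and 2681 UMIs. Pdgfa, a growth factor for mesenchymal cells, was at 0.71 (0.06 to 1.43). Mmp9, a matrix protease that neutrophils also store, was at -1.36 (-1.92 to -0.79). The 12 neutrophil markers in the same cells summed to 9117 CPM in saline and 3692 in NP. Mmp9 is itself among those 12 markers, so the sum is not a separate reading. Thbs1, an angiogenesis inhibitor, was at -0.67 (-1.47 to 0.18). The part of neutrophil RNA in these values was not tested.

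The same lists were read in neutrophil-like and monocyte-like cells. In neutrophil-like cells Hes1, a target of Notch, was at 1.41 (1.07 to 1.76), Calcrl, a receptor for adrenomedullin, at 1.72 (1.32 to 2.13) and Ptprb, a phosphatase of endothelial cells, at 1.71 (1.05 to 2.38). Nrp2, a co-receptor, was at -0.69 (-1.21 to -0.20), from 145 saline and 45 NP UMIs. Of the 6 measured tip cell and Notch genes there, 2 were past 1.5-fold upward and 1 downward, and of the 7 growth and barrier receptors 4 were upward, where 6.05% of all genes of the class were upward and 7.86% downward. In monocyte-like cells 3 of 8 measured tip cell and Notch genes were upward and 1 downward, with Hes1 at 0.95 (0.83 to 1.07) from 700 and 2579 UMIs and Pdgfb, a growth factor for pericytes, at 1.33 (0.94 to 1.74). Within the 3 monocyte-like clusters Hes1 was at 0.29 (0.10 to 0.48), 0.39 (0.17 to 0.61) and 0.60 (0.34 to 0.87), and Pdgfb at 0.29, 0.12 and 0.46 with intervals that include 0. Of 8 growth and barrier receptors 5 were upward, Ramp2 furthest at 1.75 (1.13 to 2.42), and Ednrb, an endothelin receptor, was at -1.37 (-1.80 to -0.94), where 5.92% of all genes of the class were upward and 3.66% downward. The hypoxia list had 2 of 6 genes upward in neutrophil-like cells and 1 of 6, Epas1, in monocyte-like cells. None of the 4 apelin and prokineticin list genes had 50 UMIs in these classes or in endothelial-like cells. These values stand beside the higher endothelial markers given above, and the part of those was not tested. Calcrl, Ptprb and Ramp2 are themselves among those markers.

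Genes with the most similar pattern were read from 28 points, each a class in 1 library, over 11828 genes, as a description only, since the points share libraries and depth. For Prok2 they were Gm19696 (Pearson r 0.91), Ggt1 (0.91) and Stfa3 (0.90), and for Vegfa Tspan9 (0.94), Ccdc68 (0.93) and Hes1 (0.93). Kdr was most like Palmd (0.97), Aqp1 (0.94) and Unc45b (0.94), and Apln most like Piezo2 (0.95), Sh3tc2 (0.94) and Pdgfd (0.93). Aplnr was nearest to Syt15, Emcn and Grrp1 (0.99 each) and Angpt1 to Ppp1r14a (0.92), Ism1 (0.91) and Fgf7 (0.91).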

How the data were processed

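Cells were taken from the lungs of saline- and NP-treated mice and each group gave 1 10x Genomics library. The submitters' processing notes name bcl2fastq, Cell Ranger 6.0 and the build mm10. The authors deposited raw count matrices of UMIs for all barcodes, not normalized, with 32285 genes a library, and the depth was 91168129 and 90081747 UMIs. The barcode and gene name files carry no measurement. Of the deposited gene identifiers, 99.8% were found in GENCODE M21 on GRCm38.

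The limits on barcodes were 500 and 5000 genes and 7.5% mitochondrial UMIs. For clustering, each cell's counts were brought to a sum of 10000 and logged, and 2000 variable genes without the 10 genes gave 30 principal components, a graph of 20 neighbors and Leiden clusters at resolution 1, or 0.5 for sub-clusters. A cluster took the name of the marker list with the highest mean log2 fold if at least 3 of its markers were found in 10% of its cells and that fold was over 0.5. It stayed unnamed when a second list of another lineage reached 0.7 of that fold, a limit chosen after seeing the data. One such cluster of 135 saline and 429 NP cells had endothelial and alveolar type 1 markers. The study's own cluster labels were not used. Sub-clusters with 2 or more leading markers of another class stayed unnamed. UMIs were then summed per class and library. Log2 ratios of NP over saline set sums under 3 to 3, with intervals from the exact conditional binomial, exact Poisson intervals for levels and Clopper-Pearson intervals for shares. With 1 library per condition no test was made. Genes needed 50 UMIs over both libraries for the 1.5-fold count. The ratios compare these libraries and not the conditions. Doublets were kept, since Scrublet marked 0.0115% of saline cells.

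The 10 genes, marker lists and pathway lists were chosen with earlier results of these data known. Genes named are the 10, list genes past 1.5-fold (at most 8 a class) and the 3 most alike by log2(CPM + 10) among genes of 200 UMIs or more. Other genes named, such as those that lead a sub-cluster, S100a8, Retnlg and the list examples, were chosen after their values were seen. Only the ratio step was tested on simulated data, which were pooled counts with independent counting error. That test does not cover UMIs that cluster within cells, or the clustering and naming of cells. Clustering used leidenalg 0.10.2, igraph 0.11.9 and scikit-learn 1.9.0. Scrublet was run through scanpy 1.11.5. Statistics used scipy 1.17.1 with numpy 2.4.6, tables pandas 2.3.3, and plots matplotlib 3.10.9, under Python 3.11.15.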

Additional observations from a re-analysis of the deposited data

How the results depend on the processing

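Of 172 values recomputed under the alternatives, 149 stayed within the counting interval of the reported value or, for counts, within 1.5 times it, 21 lay outside and 2 turned direction. The log2 ratio of Apln in endothelial-like cells, 0.73, became -0.48 with a minimum of 800 genes and -0.32 at resolution 0.5, and was 0.20 without the aerocyte-like cells. Under the same settings Kdr was -0.15, -0.17 and -0.20. With cells classed one by one by marker score Kdr was 0.15, Flt1 0.16 and Nrp1 0.13. With sub-clusters weighted alike Kdr was -0.13, Nrp1 -0.17 and Prok2 -0.25. With cells thinned to 1000 UMIs Vegfa was 0.43, Tek 0.27, Angpt1 0.47 and Prok2 -0.43. Prok2 was -0.36 when scaled by the median of ratios and -0.46 with equal weight per cell, and lower in NP under all 15 alternatives. Neutrophil-like cells held 92.8% of Prok2 UMIs over both libraries, and 95.05% with a minimum of 200 genes, 95.4% with 800 and 93.1% at resolution 0.5. The 5 genes past 1.5-fold in endothelial-like and neutrophil-like cells became 3 past 2-fold and 1 with a minimum of 200 UMIs. At 1.5-fold, 4.78% of all measured genes in endothelial-like and 6.05% in neutrophil-like cells were higher in NP. The share of all genes past the changed limits was not counted. These sums over both classes therefore have no background to be read against. Other values ranged from 0.20 to 0.43 for Vegfa, from -0.62 to -0.04 for Angpt2 and from -0.22 to 0.01 for Aplnr, and the cause of these shifts was not tested.

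Among these alternatives, 5 were chosen after seeing the data: adding the cluster with alveolar type 1 markers, leaving out the unnamed endothelial-like sub-clusters or the aerocyte-like cells, leaving out the neutrophil-like sub-cluster led by endothelial markers, and adding the unnamed clusters with neutrophil markers. Removal of doublets gave no usable value, since Scrublet marked 1 of 8662 saline cells and 307 of 8333 NP cells. No paired analysis was possible because each condition was 1 library. The spread between mice is unknown, and depth limits Angpt2, Apln outside aerocyte-like cells and every class of under 100 cells.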

Other observations

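Endothelial transcripts also stood in a cluster that carried markers of 2 lineages. The unnamed cluster with neutrophil and endothelial markers, 106 saline and 135 NP cells at median depths of 6084.5 and 7259 UMIs, held Kdr at 79.8 and 94.3 CPM and Flt1 at 158 and 206. Scrublet, which was not usable in the saline library, marked 69 of the 135 NP cells (51.1%) as doublets. The same cells held Prok2 at 591 (541 to 645) in saline and 442 (405 to 481) in NP, close to the neutrophil-like levels of 625 and 445.

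The unnamed cluster with endothelial and alveolar type 1 markers had a median of 1384 UMIs in saline and 1382 in NP, against 3822 and 3835.5 in endothelial-like cells. Kdr was at 221 (176 to 274) and 308 (277 to 342) CPM there, and Vegfa at 183 (143 to 232) and 261 (232 to 293). Of the Vegfa UMIs, 38 of 69 in saline and 58 of 294 in NP came from 1 cell each. The intervals do not cover such clustering of UMIs within cells. Nrp1 was at 45.9 (22.9 to 82.1) and 39.4 (17.0 to 77.6) in an unnamed cluster of 37 saline and 35 NP cells led by Gata3, Cxcr6, Il7r and Il1rl1.

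Vegfa and Prok2 had different leading sub-clusters among neutrophil-like cells, as a description. Among the 5 sub-clusters of over 100 cells in each library, Vegfa was highest in that led by Saa3 and Atf3, at 15.8 (13.8 to 18.1) and 15.6 (11.8 to 20.3) CPM, where Prok2 was lowest at 153 and 116. Where Prok2 was highest, at 1217 and 1129, Vegfa was at 8.60 (7.10 to 10.3) and 8.06 (5.67 to 11.1).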
